A study of Saccharomyces cerevisiae with 12 samples.

Results

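A yeast strain that makes additional extra-terminal (ET) domain of Bdf1 from an added construct was compared with its parent after depletion of the BET proteins Bdf1 and Bdf2 in both. The comparison used 6 of the 12 SLAM-seq libraries of the series, 3 from each strain, all from budding yeast (Saccharomyces cerevisiae) treated with the auxin indole-3-acetic acid (IAA). The control strain, RDY73, carried pGPD1-OsTIR1:HIS3, BDF2-3xV5-mAID::KanMX and BDF1-3xV5-mAID::URA3, so that IAA sends both BET proteins for degradation. The ET strain, RDY388, carried all of these and, in addition, pJR15:TRP1, which expresses the ET domain. Cultures received IAA for 25 min and then 4-thiouracil for 4 min, and the same strains with DMSO in place of IAA made up the other 6 libraries. The control strain has no empty version of the construct, so an effect of the TRP1 marker cannot be told apart from an effect of the ET domain. The study's methods state that replicates were biological, and the labels give them as letters A to C.

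BET proteins are chromatin factors with paired bromodomains, which bind acetylated lysines, and an ET domain, which binds short basic peptides of partner proteins. In budding yeast Bdf1 and Bdf2 associate with TFIID, the general factor that places TBP at promoters, and act in transcription by RNA polymerase II. SLAM-seq reads newly made RNA from T>C conversions that mark 4-thiouracil, so that T>C reads (here at least 2 conversions) stand for new RNA and all reads for the RNA pool.

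The sequences below show what the construct adds and what lies upstream of called genes from 2 of the groups described later. The first is the stretch of BDF1 that encodes the 4 conserved acidic residues of the ET domain, codons 555 to 585 of 687 on the minus strand of chrXII:919842-919934 (R64), with the acidic codons 567, 569, 571 and 573 in capitals. The construct carries the Bdf1 ET domain, and the same letters stand in the endogenous gene, so reads of this stretch cannot be told apart by origin.
BDF1 ET domain stretch: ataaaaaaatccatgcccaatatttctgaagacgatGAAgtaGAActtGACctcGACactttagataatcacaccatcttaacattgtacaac
The other 4 are windows from 300 to 51 bases before the coding start, on the gene's strand, of 2 ribosome biogenesis genes called higher in the ET strain and 2 Hsp70 genes called lower. Capitals mark the PAC core GATGAG and the RRPE core AAAATTTT in the first pair, and the heat shock element core GAANNTTC and the stress response element core AGGGG in the second pair, on either strand. UTP14 lies at chrXIII:82790-83039, RRP8 at chrIV:611773-612022, SSA1 at chrI:141482-141731 on the minus strand and SSA2 at chrXII:97536-97785 on the minus strand. The first 60 bases of the UTP14 window lie in the coding sequence of GIM5, and 153 bases of the RRP8 window in that of STN1. The printed windows hold more of these cores than those of other called ribosome biogenesis and heat shock genes. SPB1 and NOP53 had the RRPE core but no PAC core, and MTR4 the PAC core but no RRPE core. HSP82 had a stress response element core but no heat shock element core, and BTN2 had neither.
UTP14 upstream window: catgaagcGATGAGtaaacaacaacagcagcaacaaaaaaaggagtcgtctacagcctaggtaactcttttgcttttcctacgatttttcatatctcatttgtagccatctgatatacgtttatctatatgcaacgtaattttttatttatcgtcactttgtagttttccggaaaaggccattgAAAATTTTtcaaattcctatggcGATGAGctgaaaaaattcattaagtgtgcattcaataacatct
RRP8 upstream window: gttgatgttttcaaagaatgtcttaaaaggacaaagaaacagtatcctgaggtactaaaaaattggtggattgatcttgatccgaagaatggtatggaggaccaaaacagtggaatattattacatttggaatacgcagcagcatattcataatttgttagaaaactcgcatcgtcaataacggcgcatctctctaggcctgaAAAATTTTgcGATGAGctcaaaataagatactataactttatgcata
SSA1 upstream window: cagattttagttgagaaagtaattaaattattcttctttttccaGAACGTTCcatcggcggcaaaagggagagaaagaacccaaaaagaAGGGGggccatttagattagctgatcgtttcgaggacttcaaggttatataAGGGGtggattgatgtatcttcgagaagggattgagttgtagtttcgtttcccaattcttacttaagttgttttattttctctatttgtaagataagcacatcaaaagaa
SSA2 upstream window: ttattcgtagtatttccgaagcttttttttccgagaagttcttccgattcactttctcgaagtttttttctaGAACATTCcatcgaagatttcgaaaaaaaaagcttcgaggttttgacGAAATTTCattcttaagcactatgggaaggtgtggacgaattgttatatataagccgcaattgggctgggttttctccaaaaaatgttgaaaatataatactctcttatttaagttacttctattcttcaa

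The libraries of the ET strain held more labelled RNA. Control libraries with IAA had 6279282 to 9368112 S. cerevisiae reads and 90321 to 121781 T>C reads, and ET libraries had 8837359 to 10677050 reads and 145088 to 195720 T>C reads. The labelled share, T>C reads as a percent of reads, was 1.29%, 1.44% and 1.38% in control replicates A to C and 1.64%, 1.73% and 1.83% in the ET replicates. The groups did not overlap, with means of 1.37% ± 0.0726 (SD, n = 3) and 1.73% ± 0.0959, and the exact permutation test gave p = 0.1 (two-sided), the smallest that 3 libraries against 3 allow. The labelled share of the S. pombe spike-in cells, which carry no construct, was 2.58%, 3.03% and 2.53% beside the control strain and 2.86%, 3.18% and 2.94% beside the ET strain, and these groups overlapped (exact p = 0.3). ET replicate C had 17.6 S. cerevisiae reads per S. pombe read, against 14.7 or fewer in the other 5 libraries. S. pombe T>C reads numbered 16452, 13486 and 15586 beside the control strain and 19490, 21510 and 17858 beside the ET strain, without overlap. The labelled share of S. cerevisiae was also higher in the ET strain without depletion. With DMSO it was 2.67%, 2.69% and 2.60% in control replicates A to C and 2.94%, 2.90% and 3.42% in the ET replicates.

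Reads from the construct were set apart from the comparison, and they marked every ET library. BDF1 (YLR399C), which gave the construct its ET domain and its terminator, had 104, 94.8 and 119 normalised T>C reads in the control libraries and 497, 466 and 561 in the ET libraries. The log2 difference was 2.25 ± 0.16 (SE), with an edgeR adjusted p of 2.05e-26, and it was 1.44 in all reads. TRP1 (YDR007W), the marker, had 3, 0 and 1 T>C reads in the control libraries and 68, 78 and 102 in the ET libraries, and for this reason was not tested in T>C reads. RPL25 (YOL127W), whose nuclear localisation signal is part of the construct, had 416, 379 and 443 normalised T>C reads in the control strain and 685, 755 and 675 in the ET strain. Its T>C difference was 0.77 ± 0.13 (edgeR adjusted p = 8.26e-06), while its all-read difference was -0.11 (adjusted p = 0.502). Libraries of both strains thus matched their labels, and the construct genes are left out of every count below. BDF2, the other degron gene, did not pass the test in T>C reads (-0.18, adjusted p = 0.663) but was called lower in all reads (-0.45, adjusted p = 0.00148). GPM1, which gave the construct its promoter, likewise did not pass in T>C reads (-0.21, adjusted p = 0.407) and was called lower in all reads (-0.39, adjusted p = 0.0112).

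Outside the construct, 24 of 3675 tested genes were called higher in the ET strain in T>C reads and 21 were called lower, by edgeR's quasi-likelihood test at an adjusted p under 0.05. These are 0.653% and 0.571% of the genes tested. At 1.5-fold with an unadjusted p under 0.05, 319 genes (8.68%) were higher and 97 (2.64%) lower. The median log2 difference of all tested genes was 0.17, so a typical gene had slightly more new RNA per unit of its library's RNA pool in the ET strain. That median depends on what libraries are scaled to: it was 0.45 when scaled to the sum of reads, 0.48 when scaled to S. pombe reads and -0.00 with TMM factors of the T>C counts. Under S. pombe scaling 60 genes were called higher and 0 lower, and under TMM 11 higher and 74 lower, so differences are best read relative to the median gene. In bulk libraries, more cells that make an RNA and more of it per cell cannot be told apart.

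**Figure D1:**
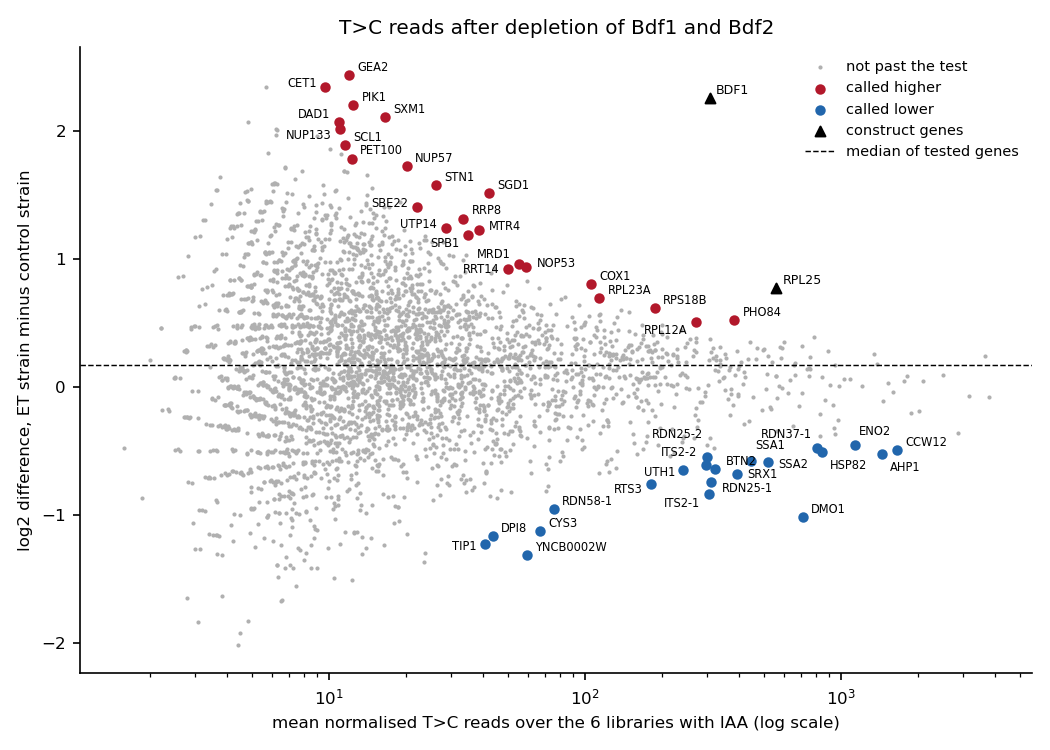
Each point is a gene, with its mean normalised T>C reads over the 6 libraries with IAA on a log scale (x) and its log2 difference between strains (y). The 24 genes called higher (red) spread from log2 0.51 to 2.43 and have a median level of 31.0, while the 21 called lower (blue) have a median level of 311. Triangles are construct genes, and the dashed line is the median of 0.17.

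The spike-in gave no called gene between the same libraries. Of 485 S. pombe genes tested in T>C reads, edgeR called 0, DESeq2 called 0, and 26 (5.36%) had an unadjusted p under 0.05. Their median log2 difference was 0.08. The spike-in had 13486 to 21510 T>C reads per library, against 90321 to 195720 for S. cerevisiae. It thus had less power to call a gene, and the 2 counts of calls cannot be set against each other.

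Nucleolar and ribosome assembly factors made up the largest named group among the 24 genes called higher. UTP14, a component of the small-subunit processome that cuts pre-rRNA, had 14.4, 15.8 and 20.7 normalised T>C reads in the control libraries and 39.9, 31.5 and 48.9 in the ET libraries (log2 difference 1.24 ± 0.33 SE, edgeR adjusted p = 0.0277). RRP8, a methyltransferase of 25S rRNA, had 24.1, 13.5 and 19.0 against 38.4, 52.9 and 52.3 (1.31 ± 0.30, adjusted p = 0.00566). Their windows are printed above. For both genes every ET library lay above every control library. The groups were apart in 23 of the 24 genes called higher and 20 of the 21 called lower. Called genes were picked by a test on the same values, so lack of overlap adds no support. Its share over all tested genes was not counted. SPB1, a methyltransferase for the large subunit, had 17.7, 18.1 and 27.6 in the control strain and 54.7, 37.8 and 53.4 in the ET strain (1.19 ± 0.30, adjusted p = 0.0157). NOP53, needed for late processing of large-subunit rRNA, had 35.3, 54.2 and 32.8 against 91.7, 73.1 and 65.9 (0.94 ± 0.24, adjusted p = 0.0168). MTR4 encodes the RNA helicase that feeds pre-rRNA spacers and other nuclear RNA to the exosome. It had 28.9, 24.8 and 15.5 in the control libraries and 48.8, 47.9 and 64.8 in the ET libraries (1.23 ± 0.29, adjusted p = 0.00823). MRD1, an RNA-binding protein of the small-subunit processome, had 46.6, 27.1 and 37.9 against 57.7, 81.9 and 80.7 (0.96 ± 0.25, adjusted p = 0.02). The groups did not overlap in any of these 4 either. MRD1 stood outside the list of ribosome biogenesis genes, which held the other 5. RRT14 was also called, at 0.92.

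SGD1, which encodes an essential nuclear protein, showed how far single control libraries could spread, with 44.9, 11.3 and 6.9 normalised T>C reads in the control libraries and 63.6, 55.4 and 71.6 in the ET libraries (1.51 ± 0.30, edgeR adjusted p = 0.000943). STN1, a telomere capping protein, had 19.3, 6.77 and 12.1 against 32.5, 47.9 and 38.6 (1.58 ± 0.35, adjusted p = 0.00323). The STN1 interval runs 103 bases into that of RRP8 on the same strand, so these 2 calls can share reads. SBE22, which acts in secretion of cell wall material to the bud, had 9.63, 6.77 and 19.0 against 32.5, 29.0 and 35.2 (1.41 ± 0.39, adjusted p = 0.0324).

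Nuclear transport was the next group. NUP57, a subunit of the central channel of the nuclear pore, had 8.03, 13.5 and 6.9 normalised T>C reads in the control libraries and 38.4, 29.0 and 25.0 in the ET libraries (1.72 ± 0.42, edgeR adjusted p = 0.00998). NUP133, of the outer ring of the pore, and SXM1, a karyopherin that carries cargo through it, were called at 2.01 and 2.10. Of 48 tested genes in the nuclear pore and transport receptor list, 3 were called higher, 0 lower, and 10 were higher by the 1.5-fold rule (20.8%), beside 0.653% called higher and 8.68% higher by that rule among all genes.

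The largest differences among called genes belonged to genes with few reads. GEA2, an exchange factor for Arf GTPases at the Golgi, was the highest at 2.43, from 3, 1 and 2 T>C reads in the control libraries to 16, 18 and 13 in the ET libraries. CET1, the triphosphatase that starts mRNA capping, stood at 2.34, PIK1, a phosphatidylinositol 4-kinase, at 2.20, and DAD1, of the DASH ring that ties kinetochores to microtubules, at 2.06. SCL1, a proteasome α-subunit, stood at 1.89 and PET100, an assembly factor of cytochrome c oxidase, at 1.78. Of these 6 genes only DAD1 had overlapping groups. At higher levels the called differences were smaller. PHO84, the high-affinity phosphate transporter, stood at 0.52, the ribosomal protein genes RPL23A, RPS18B and RPL12A at 0.69, 0.62 and 0.51, and the mitochondrial gene COX1 at 0.80. The COX1 interval contains the intron-encoded genes AI1 to AI5, and reads of these cannot be told apart from its own.

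Of the 24 higher calls, 0 held when each of the 6 IAA libraries was left out in turn. The count was 9, 11 and 4 without control replicates A, B and C, and 33, 16 and 11 without ET replicates A, B and C. STN1 and SGD1 held in 5 of the 6 fits. All 24 remained called when libraries were scaled to the sum of reads or to S. pombe reads, 16 in DESeq2, where 3 had no adjusted p, and 11 under TMM. The scalings to the sum of reads and to S. pombe reads raised the median difference from 0.17 to 0.45 and 0.48. That shift favours higher calls, so these 2 scalings are no check on them.

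Genes called lower in the ET strain were mostly abundant ones, with a median of 311 normalised T>C reads against 31.0 for the genes called higher. Heat shock protein genes made up 4 of the 21. SSA2, a constitutive Hsp70, had 578, 673 and 619 normalised T>C reads in the control libraries and 524, 364 and 359 in the ET libraries (log2 difference -0.59 ± 0.13 SE, edgeR adjusted p = 0.00323). SSA1, its close relative, had 515, 515 and 571 against 438, 346 and 291 (-0.58 ± 0.13, adjusted p = 0.00478), and SSA1 and SSA2 are similar enough in coding sequence that some reads may be shared between them. HSP82, the inducible Hsp90, had 881, 881 and 1195 against 682, 733 and 666 (-0.51 ± 0.12, adjusted p = 0.00625). Groups did not overlap in any of these 3 genes. BTN2, which sorts misfolded proteins into deposits, was called at -0.65 although its groups overlapped: ET replicates A and B had 311 and 304, and the lowest control library had 305. ET replicate C was low, at 148, and without it the adjusted p of BTN2 was 0.345.

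Redox and cell wall genes followed. SRX1, the sulfiredoxin that repairs oxidised peroxiredoxins, had 490, 436 and 517 normalised T>C reads in the control libraries and 382, 263 and 260 in the ET libraries (-0.68 ± 0.14, edgeR adjusted p = 0.00123). AHP1, a peroxiredoxin, was called at -0.52. TIP1, a cell wall mannoprotein, had 40.1, 83.5 and 50.0 against 16.3, 15.1 and 38.6 (-1.23 ± 0.31, adjusted p = 0.0141). The wall genes UTH1 and CCW12 were called at -0.65 and -0.49. The intervals of AHP1 and CCW12 meet on opposite strands, and how the counting treated strand is not given in the sources used here. CYS3, the last enzyme in cysteine synthesis, had 94.7, 56.4 and 121 against 50.3, 31.5 and 45.4 (-1.13 ± 0.25, adjusted p = 0.00323). ENO2, the main glycolytic enolase, was called at -0.46.

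The next 4 intervals belong to none of the groups above. DMO1 (YJR120W) had the smallest p of the comparison outside the construct, with 997, 844 and 1006 normalised T>C reads in the control libraries and 475, 359 and 571 in the ET libraries (-1.02 ± 0.13, edgeR adjusted p = 2.86e-10). Its interval overlaps that of ATP2, which encodes the β-subunit of ATP synthase, by 120 bases on the same strand. The interval of YNCB0002W, a phenylalanine tRNA gene extended by 250 bases, had 72.2, 94.8 and 86.2 against 32.5, 40.3 and 28.4 (-1.31 ± 0.26, adjusted p = 0.000943), the lowest of all called differences. RTS3 had 250, 228 and 204 against 163, 108 and 133 (-0.76 ± 0.17, adjusted p = 0.00346), and DPI8 had 44.9, 81.3 and 56.9 against 26.6, 12.6 and 39.8 (-1.16 ± 0.31, adjusted p = 0.0245). In all 4, each ET library lay below each control library.

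The other 6 lower calls were intervals of the ribosomal DNA. ITS2-1, the spacer between 5.8S and 25S rRNA, had 348, 483 and 343 normalised T>C reads in the control libraries and 245, 155 and 251 in the ET libraries (-0.84 ± 0.15, edgeR adjusted p = 0.000129). RDN25-1 had 356, 472 and 341 against 250, 169 and 275 (-0.74 ± 0.15, adjusted p = 0.00108), and RDN58-1 had 93.1, 126 and 81.1 against 50.3, 37.8 and 63.6 (-0.96 ± 0.24, adjusted p = 0.0151). RDN37-1, RDN25-2 and ITS2-2 were called at -0.48, -0.55 and -0.61. These intervals lie inside one another and in 2 near-identical repeats, so they are not 6 separate observations. ET replicate B was the lowest ET library in RDN25-1, ITS2-1 and RDN58-1, and control replicate B the highest control library.

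**Figure D2:**
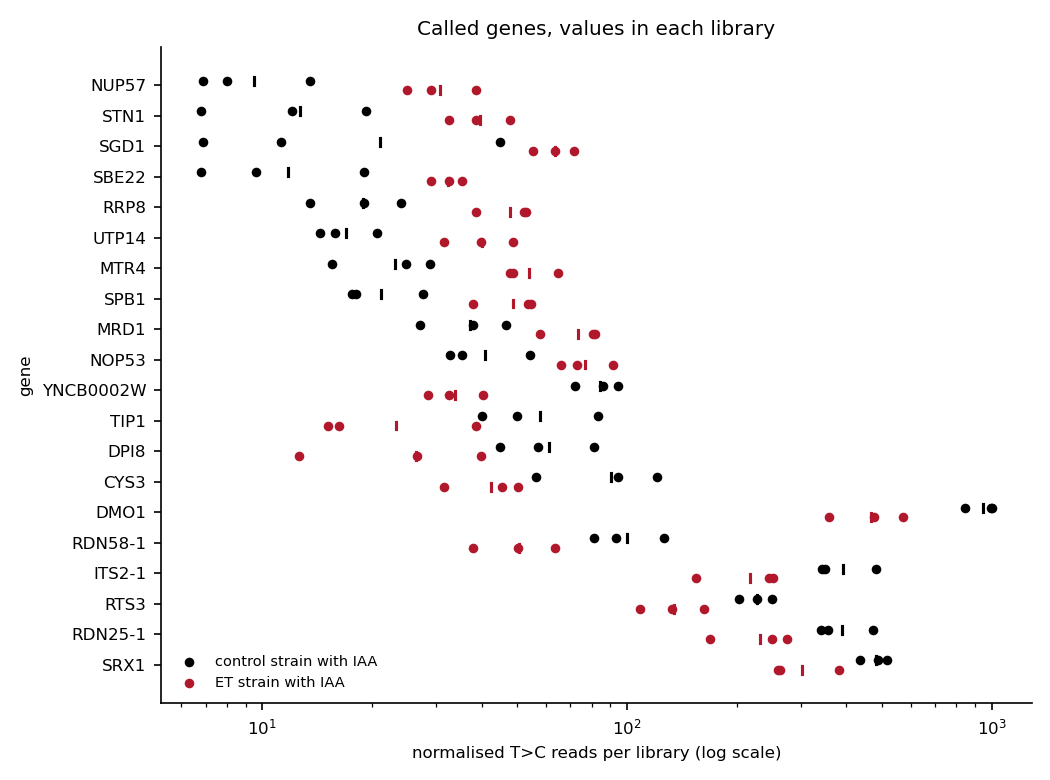
The plot gives normalised T>C reads (x, log scale) in each library for the 10 largest called differences in each direction among genes with a mean of at least 20; points are libraries and ticks are means of 3. Black is the control strain and red the ET strain, both with IAA. The groups do not overlap in any of the 20 genes shown, which were picked by the test on the same values.

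Of the 21 lower calls, YNCB0002W, DMO1, ITS2-1 and SRX1 held in all 6 fits that left out an IAA library. The count was 7 without ET replicate B, 11 without control replicate C and 33 without ET replicate A. All 21 kept a negative difference under every scaling, but 10 were called when scaled to the sum of reads, 0 when scaled to S. pombe reads and 21 under TMM. TMM lowered the median difference from 0.17 to -0.00, which favours lower calls, so it is no check on them.

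Functional classes were then described over lists with at least 6 tested genes, by their median difference beside the all-gene median of 0.17 and by the percent of a library's T>C reads they held, which needs no scaling factor. Ribosome biogenesis genes stood high as a class. Of 126 tested, 5 were called higher and 0 lower, beside 0.653% and 0.571% of all genes. By the 1.5-fold rule 39 were higher (31.0% against 8.68% of all genes), and the class median was 0.47. They held 1.96%, 1.95% and 1.95% of T>C reads in the control libraries and 2.38%, 2.54% and 2.59% in the ET libraries, with no overlap. Shares did not overlap either for lists near the median gene, such as noncoding intervals outside the ribosomal DNA (median 0.23). Lack of overlap thus does not single out a class here.

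Several other groups of housekeeping machinery had medians in the same range. Lists can share members, so they are not separate observations. MTR4, for example, was in both the ribosome biogenesis and the exosome and TRAMP lists. The 16 exosome and TRAMP genes had a median of 0.49 and 15 lay above the all-gene median, with CSL4, a cap subunit of the exosome, at 0.54 (edgeR adjusted p = 0.29, not called). Mitochondrial ribosomal protein genes had a median of 0.48, with 11 of 56 higher by the 1.5-fold rule (19.6% against 8.68% of all genes), and held 0.366%, 0.330% and 0.346% of T>C reads in the control strain against 0.427%, 0.514% and 0.460% in the ET strain. Their leading members by the naming rule were RSM27 at 0.88, MRPL39 at 0.72 and MRPL22 at 0.64, none of them called. Genes of prefoldin and the TRiC chaperonin, which fold tubulin and actin, had a median of 0.54 over 14 genes, led by CCT3 at 0.85 and CCT4 at 0.75. They held 0.0833%, 0.0919% and 0.0854% of T>C reads against 0.128%, 0.130% and 0.118%. The share was 1.44 times as high in the ET strain, the largest ratio among the lists.

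The other lists among the 8 highest had medians from 0.39 to 0.54. Phosphoinositide kinase and phosphatase genes had a median of 0.54 over 17 genes. Vacuolar ATPase genes had a median of 0.47 over 17, general transcription factor genes other than TFIID 0.42 over 13, and spliceosome genes 0.39 over 45. TFA1, the large subunit of TFIIE, led the transcription factor genes, with 22.5, 33.9 and 24.1 normalised T>C reads against 48.8, 47.9 and 40.9 (0.80, edgeR adjusted p = 0.164), which was not a call. Proteasome genes, just outside the 8 highest lists, had a median of 0.39 and 10 of 37 members higher by the 1.5-fold rule (27.0% against 8.68% of all genes).

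The low classes were those of stress and of carbon metabolism. Chaperone genes that depend on Hsf1, the heat shock transcription factor, had a median of -0.28, and 28 of 29 lay below the all-gene median. Of these 29, 4 were called lower and 0 higher, beside 0.571% and 0.653% of all genes. HSP42, a small heat shock protein that is also in the general stress list below, stood at -0.81 without passing the test (edgeR adjusted p = 0.0655). The class held 3.64%, 3.18% and 3.81% of T>C reads in the control libraries and 2.98%, 2.79% and 2.36% in the ET libraries. General stress genes of the Msn2/Msn4 type had a median of -0.22 over 33, with 0 called and 7 lower by the 1.5-fold rule (21.2% against 2.64% of all genes). Among them PGM2, which makes glucose 1-phosphate for storage carbohydrate, had 33.7, 40.6 and 27.6 against 16.3, 6.3 and 18.2 (-1.30, adjusted p = 0.0705). GPD1, of glycerol synthesis, had 141, 160 and 155 against 104, 83.2 and 101 (-0.66, adjusted p = 0.0634). In both, the groups did not overlap and the adjusted p missed the threshold. Trehalose and glycogen genes had a median of -0.21 over 12 genes.

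Genes of energy metabolism lay below the median gene together. Glycolysis and fermentation genes had a median of -0.16 over 20 genes, with 17 below the all-gene median and ENO2 called, and held 6.80%, 7.43% and 6.79% of T>C reads in the control libraries against 6.23%, 5.82% and 5.82%. PDC1, pyruvate decarboxylase, had 949, 935 and 926 against 765, 709 and 684 (-0.38, edgeR adjusted p = 0.0725). Nuclear genes of oxidative phosphorylation had a median of -0.14 over 42, with 34 below the all-gene median and 0 called. Their share was 1.15%, 1.21% and 1.18% in the control strain and 1.03%, 1.03% and 1.05% in the ET strain. Tricarboxylic acid cycle genes had a median of -0.09 over 18 genes, led among those of sufficient level by IDH1 at -0.61 and ACO1, aconitase, at -0.60. Iron and copper genes (-0.10, 21 genes) and glucose-repressed genes (-0.23, 7 genes) completed the 8 lowest lists, with 0 called. Among all lists described, the shares of T>C reads overlapped between strains for the iron and copper, vacuolar ATPase, proteasome and intron genes.

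Of the classes set by annotation, the rDNA intervals were lowest, at a median of -0.37 over 17. Of these intervals 6 were called lower, beside 0.571% of all genes. Their share fell from 2.49%, 2.83% and 2.25% in the control libraries to 2.11%, 1.61% and 1.78% in the ET libraries. Mitochondrially encoded genes had a median of 0.54 over 15 intervals, many of which overlap, with COX1 called. Genes within 20 kb of a chromosome end (0.21, 39 genes), intron genes outside the ribosomal protein lists (0.22, 114 genes) and noncoding intervals outside the rDNA (0.23, 120 intervals) lay near the median gene, with 1 call in all, that of YNCB0002W. How a library made from the 3′ ends of mRNA captures ribosomal and mitochondrial RNA was not tested.

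**Figure D3:**
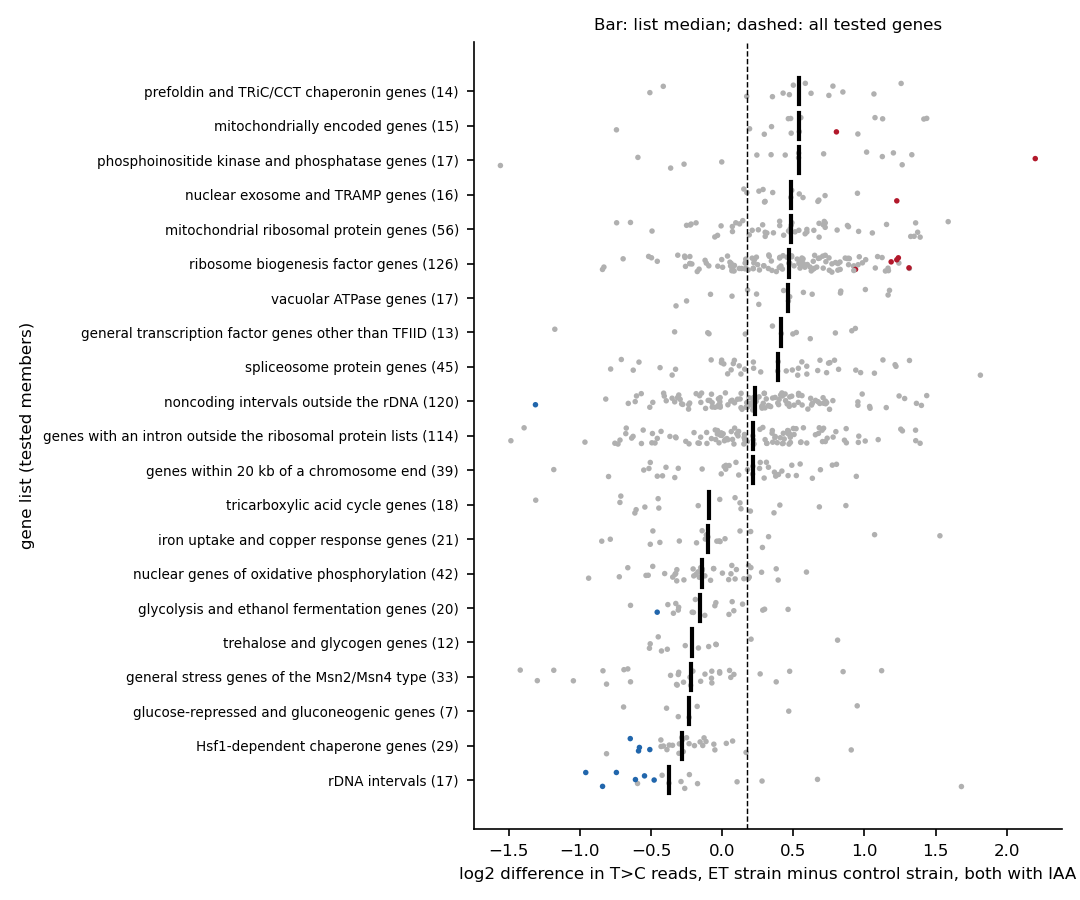
Each point is a tested member of a gene list, placed by its log2 difference in T>C reads between strains with IAA (x); lists are ordered by their median, shown as a bar, with tested members in brackets. Red and blue points were called higher and lower. Ribosome biogenesis genes centre on 0.47 and Hsf1-dependent chaperone genes on -0.28, on either side of the dashed all-gene median of 0.17.

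Several class medians depended on single libraries. Relative to the median of all tested genes, 6 of the 21 lists described stayed within 1.5 times of their value under the other scalings, the stricter filter and each left-out IAA library, and 15 did not. The 6 were the ribosome biogenesis, exosome and TRAMP, Hsf1-dependent chaperone, general stress, glycolysis and oxidative phosphorylation lists. Among the low lists, the glucose-repressed genes moved from -0.40 to -0.03 without control replicate C. The tricarboxylic acid cycle genes, at -0.27, stood at -0.57 without control replicate A, -0.17 without control replicate C, -0.45 without ET replicate A and -0.07 when genes averaging under 10 T>C reads were dropped. The iron and copper genes, at -0.27, stood at -0.17 and -0.50 without control replicates A and C. Without ET replicate B, the trehalose and glycogen genes moved from -0.39 to -0.24 and the rDNA intervals from -0.55 to -0.36. Among the high lists, the phosphoinositide genes, at 0.36, stood at 0.01 without ET replicate C and 0.18 without control replicate B. Without control replicate B, the mitochondrial ribosomal protein genes moved from 0.31 to 0.20 and the general transcription factor genes from 0.24 to 0.12. The vacuolar ATPase genes, at 0.29, stood at 0.14 without control replicate B and 0.16 without ET replicate B, and the spliceosome genes, at 0.22, at 0.36 and 0.13 in the same order. The prefoldin and TRiC genes moved from 0.37 to 0.62 without control replicate C, and the mitochondrially encoded genes from 0.37 to 0.20 without ET replicate C. The other 3 lists, set by annotation, lay within 0.06 of the median gene.

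More genes were called in all reads, the RNA pool, which are many times as numerous as T>C reads. In all reads, 208 of 5237 genes were called higher (3.97%) and 699 lower (13.3%) by edgeR at an adjusted p under 0.05, around a median of -0.02. This split turned with the scaling, to 1593 higher and 208 lower when scaled to the sum of reads and 707 higher and 79 lower when scaled to S. pombe reads, so only positions relative to other genes are described. All 21 genes called lower in T>C reads were also called lower in all reads, and 10 of the 24 called higher were called higher, with 0 called in the opposite direction. Both readouts come from the same libraries. The higher count was 315, 76 and 102 without ET replicates A, B and C, and 111 and 116 without control replicates A and C. The lower count was 353 and 436 without ET replicates B and C and 451 without control replicate C.

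The 6 genes with the largest rise in all reads were ECM1, URK1, YNL035C, RAD14, MTR3 and CLF1. MTR3, a core subunit of the exosome, had 83.5, 74.5 and 60.4 normalised reads in the control libraries and 145, 154 and 123 in the ET libraries (0.94 ± 0.17, edgeR adjusted p = 0.000891). CLF1, a splicing factor, had 62.6, 61.0 and 60.4 against 123, 123 and 105 (0.92 ± 0.16, adjusted p = 0.000684). ECM1, which acts in export of the large ribosomal subunit, was highest at 1.08, from 88.3, 79.0 and 94.9 to 138, 218 and 197. URK1, uridine kinase, stood at 0.97, and RAD14 and YNL035C at 0.95. The lowest was DMO1, at -1.37, beside YKR041W at -1.37, whose interval overlaps a tRNA gene. QDR2, a multidrug transporter, had 1238, 1355 and 1331 normalised reads in the control libraries and 594, 499 and 489 in the ET libraries (-1.31 ± 0.09, adjusted p = 2.63e-08). It was also lower with DMSO, at -1.07 (adjusted p = 6.57e-07). RDN58-1 stood at -1.28, the kinase gene VHS1 at -1.28 and RDN58-2 at -1.21.

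Class values in all reads stand beside an all-gene median of -0.02, with 3.97% of all genes called higher and 13.3% lower. Ribosome biogenesis genes had an all-read median of 0.19, with 34 of 135 called higher (25.2%) and 4 lower (2.96%). Nuclear genes of oxidative phosphorylation had -0.30, with 29 of 42 called lower (69.0%), and the tricarboxylic acid cycle -0.39, with 11 of 19 called lower (57.9%). Of the 29 Hsf1-dependent chaperone genes 16 were called lower (55.2%), yet the class held 1.51%, 1.62% and 1.56% of all reads in the control libraries and 1.57%, 1.53% and 1.49% in the ET libraries, which overlap. Cytosolic ribosomal protein genes, looked at after their values were seen, had T>C medians of 0.24 (small subunit) and 0.25 (large subunit), slightly above the median gene. Their all-read medians were -0.22 and -0.25, with 21 of 57 and 30 of 80 called lower (36.8% and 37.5%, against 13.3% of all genes) and 0 higher. As shares of all reads, large-subunit genes held 32.1%, 29.9% and 32.0% in the control libraries and 31.5%, 31.7% and 31.9% in the ET libraries, which overlap. Their share of T>C reads was 9.95%, 9.45% and 9.38% against 10.3%, 11.0% and 10.5%, which do not.

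**Figure D4:**
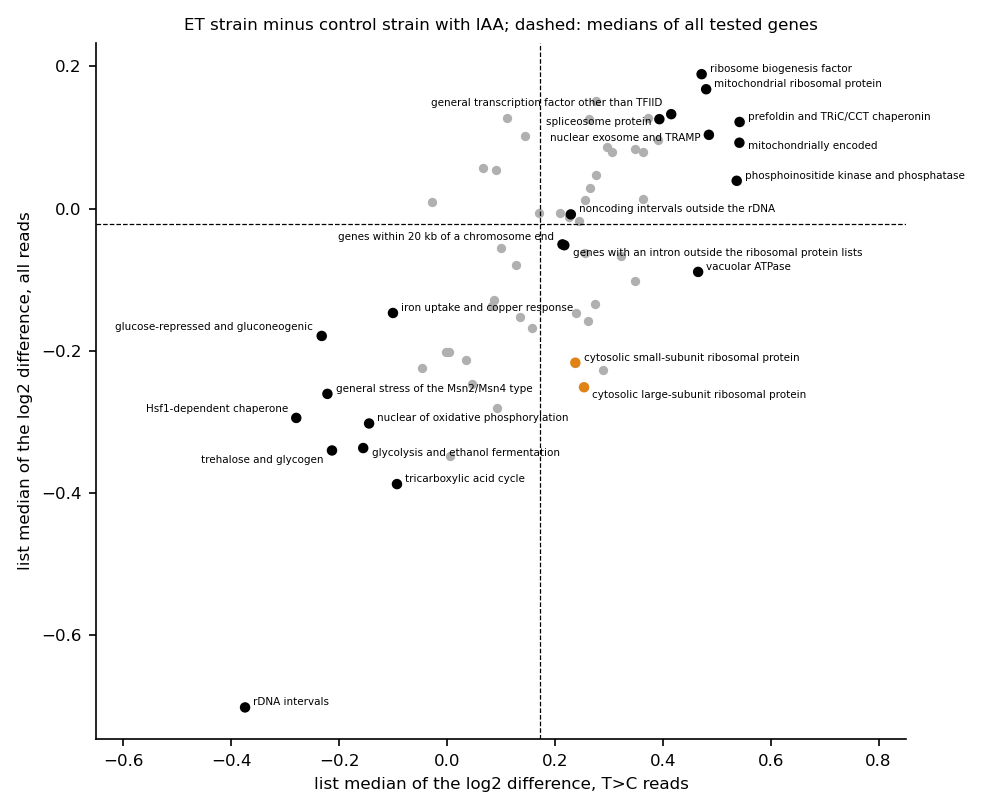
Each point is a gene list with at least 6 tested members, by its median log2 difference between strains with IAA in T>C reads (x) and in all reads (y). Dashed lines are the medians of all tested genes, 0.17 and -0.02. Stress, Hsf1-dependent chaperone and energy lists lie low on both axes, while ribosome biogenesis and the prefoldin and TRiC list lie high on both. The ribosomal protein lists (orange) lie near the median in T>C reads and low in all reads.

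The same strains with DMSO, where Bdf1 and Bdf2 are kept, gave fewer calls. In T>C reads 3 genes were called higher and 1 lower, outside the construct, and the all-gene median was 0.18. These libraries are not shared with the IAA comparison. Of the 24 genes called higher with IAA, 20 also had a positive difference with DMSO, at a median of 0.26 against 1.36 with IAA. With DMSO 0 of them were called. Given the all-gene median of 0.18, most tested genes were also positive with DMSO. The share of all genes by sign was not counted, so 20 of 24 is not read as agreement. Of the 21 called lower, 15 had a negative difference with DMSO, at a median of -0.19 against -0.65, and DMO1 was called (-0.61). Across all 3675 genes the differences with IAA and with DMSO correlated at r = 0.13 (Pearson), and at r = 0.64 over 372 genes that averaged 100 or more normalised T>C reads. Genes are not independent replicates, so no p is given.

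Class medians with DMSO stand beside an all-gene value of 0.18. Hsf1-dependent chaperone genes had a median of -0.13 with DMSO. Ribosome biogenesis genes had 0.24, oxidative phosphorylation 0.14 and general stress genes 0.08. The rDNA intervals had 0.28. The difference between the 2 strain contrasts was itself tested gene by gene. It passed an edgeR adjusted p of 0.05 for 4 genes, all among those named: PIK1 at 2.50 (adjusted p = 0.048), and RDN58-1 at -1.44, ITS2-1 at -0.996 and RDN25-1 at -0.89. For the other 41 named genes, different effects with and without depletion were not shown.

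**Figure D5:**
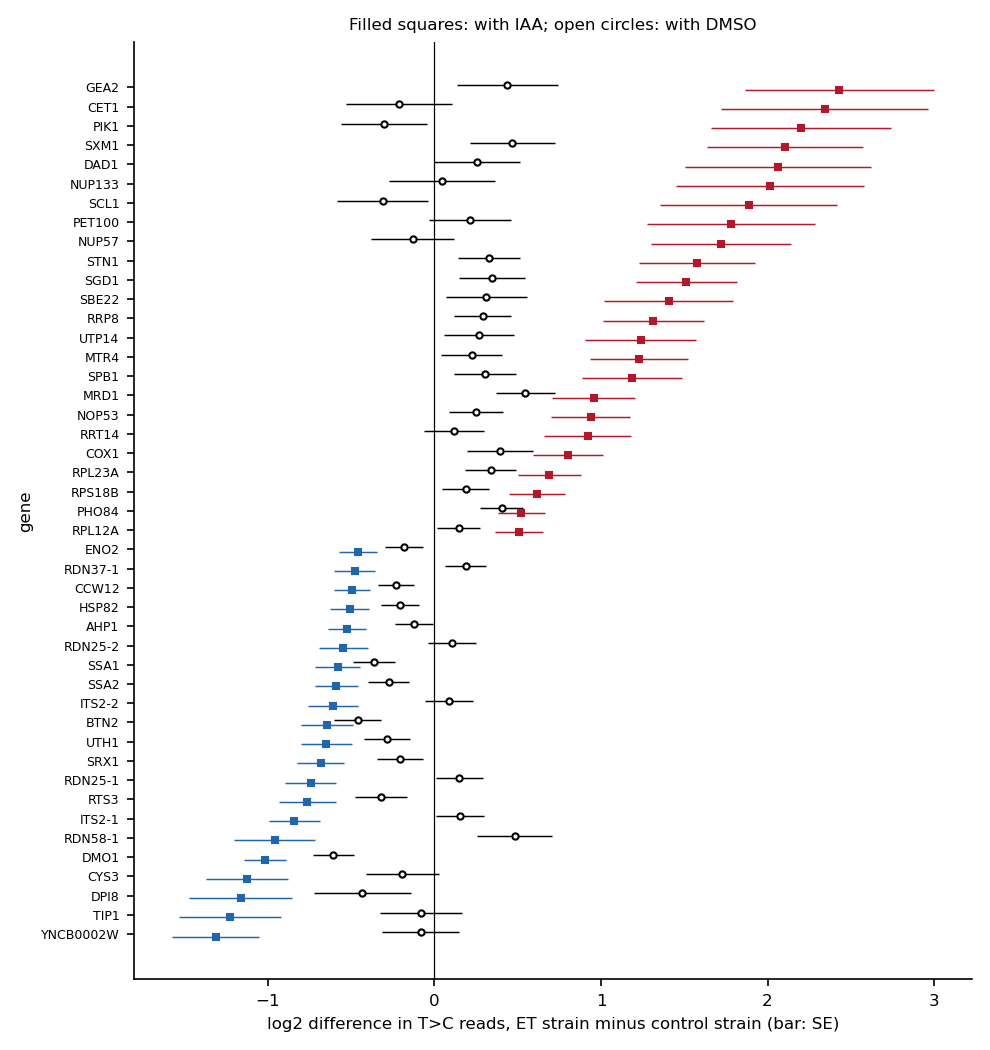
Log2 difference in T>C reads between the ET and the control strain (x) for the 45 called genes, with IAA (filled squares) and with DMSO (open circles); bars are SE. The circles lie closer to 0 than the squares for every gene, and the rDNA circles lie on the other side of 0.

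The control strain's own response to IAA is given beside these values, with the warning that it shares the 3 control IAA libraries, so the 2 comparisons are not independent. Relative to DMSO, all tested genes had a median T>C difference of -0.46 in the control strain and -0.48 in the ET strain. These values depend on the scaling. Control size factors in replicates A to C were 1.57, 1.56 and 1.35 with DMSO and 0.62, 0.44 and 0.58 with IAA. S. pombe factors of the same libraries were 1.05, 1.02 and 0.89 against 1.03, 0.73 and 0.99. Other scalings were not fitted for this contrast. The class values are therefore positions relative to the median gene, not rises or falls in new RNA. Ribosome biogenesis genes stood at -1.04 and mitochondrial ribosomal protein genes at -1.22 in the control strain, and Hsf1-dependent chaperone genes at 0.16, general stress genes at 1.03, glycolysis genes at 1.29 and rDNA intervals at 1.21.

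Upstream of tested protein-coding genes, the motif cores were searched in 3520 windows of 250 bases like those printed above. The PAC core GATGAG, which with the RRPE core is known from ribosome biogenesis promoters, was in 111 of 126 windows of that class (88.1%) and in 19.1% of all windows, and the RRPE core AAAATTTT in 96 (76.2%) against 11.9%. Within the class, 111 genes with a PAC core had a median T>C difference of 0.47 and the 15 without one also had 0.47. Outside the class, 562 genes with a PAC core had a median of 0.23 and 2832 without had 0.15. The heat shock element core GAANNTTC was in 14 of 29 windows of Hsf1-dependent chaperone genes (48.3%) against 10.7% of all windows. Over all genes, those with it and without it had medians of 0.16 and 0.17. The stress response element core AGGGG, a site of Msn2 and Msn4, was in 27 of 33 windows of general stress genes (81.8%) against 19.7%, and the 692 genes with it had a median of 0.05 against 0.20 for the 2828 without. The TATA core TATAAA was in 41.4% of windows, with medians of 0.14 and 0.19. The Reb1 core TTACCCG was in 10.4% of windows (medians 0.26 and 0.15) and the Gcn4 core TGACTC in 6.68% (0.15 and 0.17). All cores were searched on both strands, AAAATTTT and GAANNTTC read the same on either strand, and none of the cores contains another. A match is a run of letters and was not tested as a site.

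By chromosome, medians of the all-read difference ran from -0.11 on V to 0.02 on XVI, apart from 0.09 for the mitochondrial genome. Genes within 10 kb of TRP1 had all-read differences from -0.56 (NTH1) to 0.21 (MAF1), against 5.25 for TRP1 itself. Of these neighbours, NTH1, RCR2 (-0.52), YDR003W-A (-0.39) and RPL4B (-0.30) were called lower in all reads, beside 13.3% of all genes. None of them was called higher. By level, the called genes were unevenly placed: of 4 equal groups ranked by T>C level in the control strain with DMSO, the lowest held 0 calls and the highest 14 higher and 17 lower.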

How the data were processed

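SLAM-seq libraries were read from tables of counts deposited by the authors, with no normalization: per library and gene interval, a count of all reads, of T>C reads and of multimapping reads. The authors trimmed the reads with fastp (0.23.2) and bbduk and used SLAM-DUNK (0.4.3, per the file headers) against the R64 and ASM294v2 genomes. Of 6465 S. cerevisiae intervals, 6460 reach 250 bases past the annotated 3′ end. No 2 libraries held identical values.

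T>C counts were fitted with edgeR 4.0.16 (glmQLFit, glmQLFTest, prior count 0.125) in R 4.3.3, as 4 group means over all 12 libraries. Offsets were median-of-ratios size factors of all S. cerevisiae reads. A gene with 0 T>C reads in any of the 12 libraries was left out, as was, for the fit of all reads, one with under 10 reads. In control replicates with IAA, 24.6%, 27.9% and 24.3% of intervals had 0 T>C reads, against 19.6%, 16.8% and 14.9% in ET replicates. The filter thus fell more on intervals empty in the control strain. Without it the median T>C log2 difference was 0.245 rather than 0.172. The Benjamini-Hochberg adjustment of the two-sided p-values ran over 3677 genes for T>C reads and 5240 for all reads, construct genes included. Normalised reads are counts divided by the size factor. Standard errors come from the F statistic. S. pombe counts were fitted in the same way with their own size factors. The edgeR step for T>C reads was tested on simulated counts of 3357 genes, 178 of them changed. It recovered 38.5% of 2-fold and 62.1% of 3-fold changes, with 3 false calls. A gene that was not called may therefore still differ.

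The comparison, the lists and the rule for named genes were chosen with earlier results of these data known. Every gene past the threshold was named, with values in each library for the 10 largest differences per direction at a mean of at least 20. The 8 highest and 8 lowest lists with at least 6 tested members and 5 lists by annotation were described, with up to 3 leading members each. In all reads, the 6 largest differences per direction at a mean of at least 50 were named. Upstream windows were read from the R64 RefSeq genome. Alternatives were other scalings, filters, DESeq2 1.42.0, a replicate block and leaving out each library. Python 3.11.15 with numpy, scipy, pandas and matplotlib was used for tables and figures.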

Additional observations from a re-analysis of the deposited data

Results flagged for a closer look

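The strain difference with IAA was set against the strain difference with DMSO for each of the 45 called genes, by the interaction term of the edgeR fit, and it differed for 4. PIK1 differed by 2.50 on the log2 scale (adjusted p = 0.048), with 3.21, 9.03 and 1.72 normalised T>C reads in the control libraries with IAA. RDN58-1 differed by -1.44, ITS2-1 by -0.996 and RDN25-1 by -0.89, and these 3 intervals of 1 ribosomal DNA repeat share reads. Groups of 3 libraries were not searched for outliers.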

How the results depend on the processing

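Calls in T>C reads, 24 higher and 21 lower, became 480 and 11 when libraries were scaled to the sum of reads, 60 and 0 under S. pombe scaling, 11 and 74 with TMM, and 15 and 11 without overlapping intervals. Left-out libraries gave 4 to 33 higher and 7 to 33 lower, with the lowest counts without control replicate C and ET replicate B. DESeq2 gave 17 and 19, the 6 libraries with IAA alone 16 and 21, no filter 25 and 22, and a mean of at least 10 reads 26 and 23. The replicate letters did not pair the libraries: deviations of same-letter libraries correlated at 0.0081, -0.019 and -0.0010 for A, B and C. With the replicate block the counts were 24 and 25 in T>C reads and 168 and 649 in all reads. In all reads, 208 higher and 699 lower became 1593 and 208 (sum of reads) or 707 and 79 (S. pombe reads), and left-out libraries gave 76 to 315 and 353 to 820. The labelled share differed by 0.363 percentage points over all intervals and 0.344 over the tested genes. No named gene changed sign under any alternative. Of 210 class medians relative to all genes under the alternatives, 195 moved by less than the spread between ET libraries, 13 moved more, and 2 changed sign: genes near chromosome ends (-0.0396 without ET replicate A, up to 0.0527 without control replicate C) and intron genes (-0.0579 without ET replicate C, up to 0.0526 without ET replicate A). Depth limits the low end: 8 of the 24 higher calls rest on a mean under 20 normalised T>C reads. The cause of these shifts was not tested.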
